A study of Mus musculus with 12 samples.

Results

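Inflammasome and NF-kB genes were followed in mouse brain as 10 members, taken as the rows of the deposited gene table whose symbol is Nlrp3, Pycard, Casp1, Il1b, Il1a, Il18, Tnf, Nfkb1, Rela or Nfkbia. All 10 were found among 43346 genes, and 9 of them had enough reads to enter the test, which covered 22553 genes. Tnf did not pass that filter. The question put by the groups is how these genes differ between young and old brain, and between old brain with and without the mitochondrial complex I inhibitor CP2.

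RNA was sequenced from 12 libraries of brain tissue that held hippocampus and cortex, 4 in each of 3 groups. The Young group comprised untreated C57BL/6 animals aged 3 months. The Old group comprised 23-month-old animals whose strain is given as C57BL/6;SJL-Tg, on vehicle water (0.1% PEG) since 9 months of age. The Old_CP2 group matched Old in age, strain and vehicle, with CP2 added to the water at 25 mg/kg/day, also since 9 months. All 12 libraries were labelled wild type and non-transgenic, whereas the series' design text names APP/PS1 mice for the treated animals; the sample labels were followed here. Age, strain label and vehicle therefore changed together between Young and Old and cannot be told apart. The labels do not say that each library came from its own animal, so p-values measure the spread between these libraries, which may be technical.

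An inflammasome is a protein platform of the innate immune system. A sensor such as NLRP3 gathers the adaptor ASC, encoded by Pycard, which in turn gathers pro-caspase-1, encoded by Casp1. Active caspase-1 cuts the precursors of interleukin-1 beta and interleukin-18 and opens the pore protein gasdermin D. NF-kB is a family of dimeric transcription factors, of which p50 (made from the Nfkb1 product) and p65 (Rela) are the best known pair. IkB alpha, encoded by Nfkbia, holds the dimer in the cytoplasm and is itself an NF-kB target. Tnf, Il1b, Il1a and Nlrp3 are textbook targets of the pathway, and in the brain microglia are the main resident cells that make most of these products.

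The start-site sequences are shown first, because an NF-kB site near the start is the textbook link between the inflammasome and NF-kB genes. RefSeq promoters of the GRCm38.p6 build were read as the 250 bases before each annotated start. They covered 9 of the 10 members in 10 entries, since Nlrp3 has 2 starts. The kB motif was searched on both strands as GGGAN or GGGGN followed directly by TTTCC or TTCCC, which makes 4 spellings. They occurred in 466 of 32851 mouse promoters (1.42%) and in 2 of the 10 member entries, those of Nfkbia and the upstream start of Nlrp3. TATAAA, the core of a TATA box, occurred on either strand in 12.37% of promoters and in 4 of the 10 entries. An interferon-factor spelling, GAAA and GAAA with any 2 bases between them, occurred in 2.98% of promoters and in none of the 10 entries. In the lines that follow, capitals mark a kB or TATAAA match, each sequence reads 5′ to 3′ on the gene's strand, and the last base lies next to the start.
Casp1: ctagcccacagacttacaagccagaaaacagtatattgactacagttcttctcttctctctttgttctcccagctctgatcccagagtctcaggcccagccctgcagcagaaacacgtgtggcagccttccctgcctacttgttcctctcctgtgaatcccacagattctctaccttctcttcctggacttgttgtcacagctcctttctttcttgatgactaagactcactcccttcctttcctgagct
Nlrp3: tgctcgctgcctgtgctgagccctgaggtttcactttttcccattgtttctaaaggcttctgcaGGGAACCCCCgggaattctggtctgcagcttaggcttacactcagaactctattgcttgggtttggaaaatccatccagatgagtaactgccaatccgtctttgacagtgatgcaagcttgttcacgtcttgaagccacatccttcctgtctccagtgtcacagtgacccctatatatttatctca
Nfkbia: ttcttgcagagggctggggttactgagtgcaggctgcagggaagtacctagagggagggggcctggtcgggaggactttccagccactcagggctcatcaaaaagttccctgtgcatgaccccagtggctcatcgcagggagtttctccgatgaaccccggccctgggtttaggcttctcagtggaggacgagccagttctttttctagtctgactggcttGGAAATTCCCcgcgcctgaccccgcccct
Il1b: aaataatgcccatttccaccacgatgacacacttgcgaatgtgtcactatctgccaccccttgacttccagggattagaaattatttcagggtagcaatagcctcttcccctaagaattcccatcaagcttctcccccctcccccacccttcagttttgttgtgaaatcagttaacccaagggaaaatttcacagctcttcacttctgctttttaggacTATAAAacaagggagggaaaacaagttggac
Tnf: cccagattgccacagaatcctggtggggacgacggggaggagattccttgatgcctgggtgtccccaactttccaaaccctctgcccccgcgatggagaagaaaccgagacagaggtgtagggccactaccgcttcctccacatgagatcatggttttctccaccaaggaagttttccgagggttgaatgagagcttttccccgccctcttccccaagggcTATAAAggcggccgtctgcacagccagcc

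The Casp1 window (chr9:5298267-5298516, plus strand), shown because Casp1 is the member that changed, held no match to any of the 3 motifs. In the Nlrp3 window (chr11:59541319-59541568, plus strand) GGGAACCCCC lay at positions -186 to -177, counted back from the start. In Nfkbia (chr12:55492648-55492897, minus strand) GGAAATTCCC lay at -29 to -20. Il1b (chr2:129371140-129371389, minus strand) and Tnf (chr17:35202008-35202257, minus strand) had TATAAA at -31 to -26 and at -29 to -24, and Il1a had it at -32 to -27. The fourth match, in Il18, lay on the opposite strand at -175 to -170. That window (chr9:50554450-50554699, plus strand) lies before a start upstream of the deposited Il18 model, which begins at 50575273. Il1b, Tnf and Il1a thus had TATAAA at nearly the same distance from the start. The distance was not compared with that in other promoters, so it does not set these genes apart. A match is a description of letters, no binding was measured in this series, and a window without a match says nothing about the factor.

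Read per unit of length, the members spanned a wide range of levels. On the authors' deposited RPKM scale, averaged over the 12 libraries, Il18 was highest at 11.4 ± 1.11 (SD, n = 12). Nfkbia followed at 7.7 ± 0.959, Rela at 5.9 ± 0.393 and Nfkb1 at 3.03 ± 0.201. Casp1 stood at 1.71 ± 0.758 and Pycard at 1.35 ± 0.247. The last 4 were Il1a at 0.269 ± 0.0805, Nlrp3 at 0.265 ± 0.0853, Il1b at 0.119 ± 0.0558 and Tnf at 0.0326 ± 0.0234. The ranges over libraries did not overlap between Il18 and Nfkbia, between Rela and Nfkb1, or between Pycard and Il1a, and every other pair of neighbours in this order overlapped. So the transcription factor genes and Il18 were well expressed, while the sensor and the inducible cytokines were at the low end. The order rests on the deposited gene lengths, which are shorter than in the GENCODE vM21 annotation for Pycard (1405 against 3800 bases), Nfkb1 (4779 against 12061 bases) and Il18 (714 against 1031 bases).

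**Figure D1:**
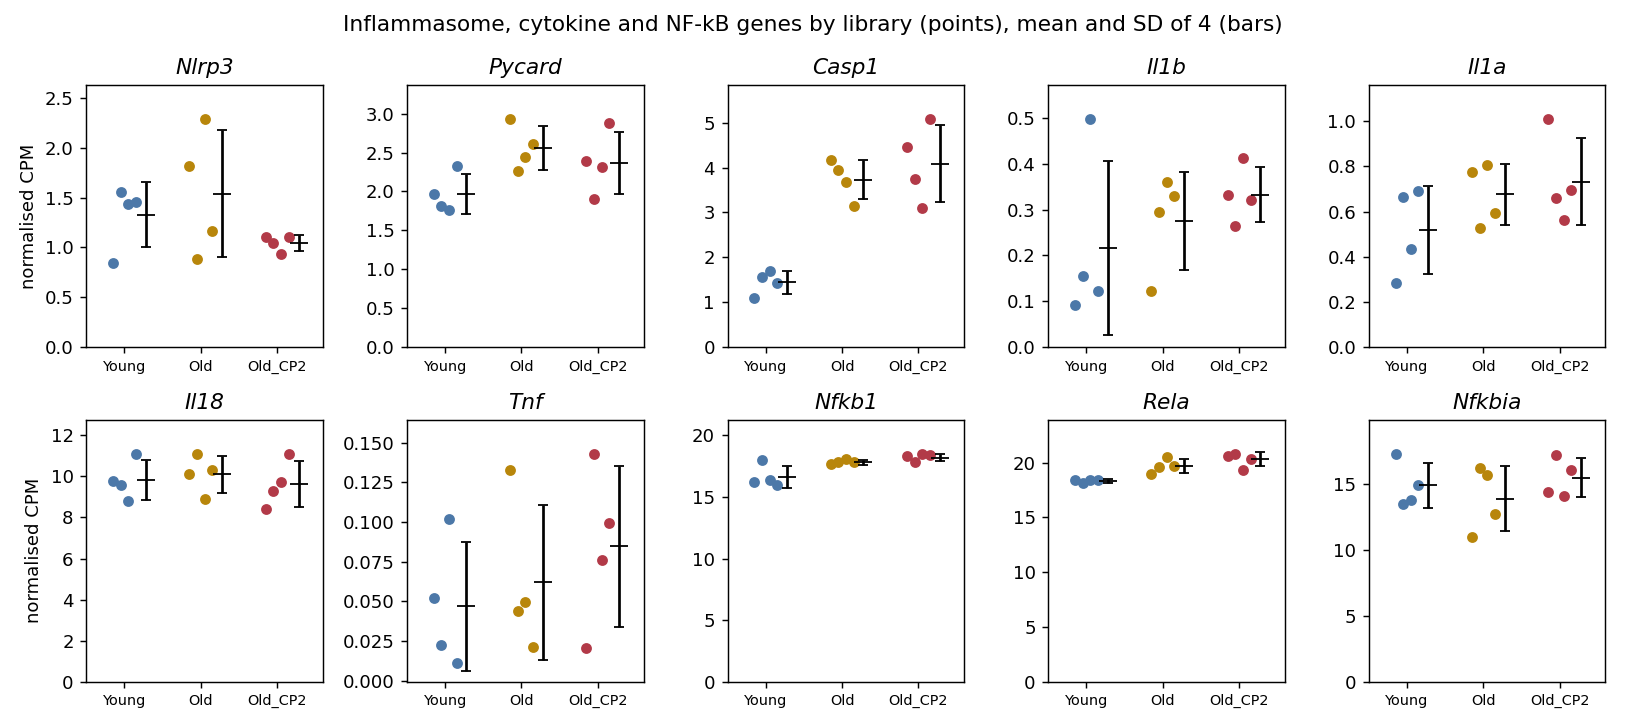
Normalised CPM (counts scaled to library size, vertical axis starting at 0) of the 10 genes in each library (points), by group, with the mean and SD of 4 libraries as bars. Casp1 lies between 1.1 and 1.69 CPM in Young and between 3.09 and 5.08 CPM in the 8 old libraries, while the groups overlap for Nlrp3, Pycard, the cytokine genes, Nfkb1 and Nfkbia.

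With 23 against 3 months of age, Casp1 was the single member that passed the test. It encodes the inflammasome's protease and lies on chromosome 9 (mm10 9:5298517-5307265, 10 exon blocks, ENSMUSG00000025888). In Young it was at 1.1, 1.55, 1.69 and 1.43 CPM in replicates 1, 3, 4 and 5. In Old it was at 4.17, 3.94, 3.67 and 3.15 CPM in replicates 7, 8, 9 and 10. Each Old library was above every Young library, a pattern that 6.94% of tested genes shared in this direction. The means were 3.73 ± 0.44 and 1.44 ± 0.25 CPM (SD, n = 4 each), on 1237 and 485 reads in all. Casp1 was 2.59-fold higher in Old (2.04 to 3.28 at 2 SE; log2 difference 1.37 ± 0.171 SE, edgeR adjusted p = 0.00113), which ranked it 38th of 22553 genes by p. Thus 1 of 9 tested members was called, against 6.7% of all tested genes, and a share resting on 1 gene does not set the list apart. Leaving out any 1 of the 8 libraries gave log2 differences of 1.27 to 1.46, all called.

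With the deposited gene lengths, Casp1 and Pycard, protease and adaptor of the same complex, changed order between the ages. On the authors' RPKM scale Casp1 ran from 0.585 to 0.92 in Young, where Pycard ran from 1.02 to 1.37. In Old Casp1 ran from 1.75 to 2.31 and Pycard from 1.26 to 1.73. Casp1 was below Pycard in all 4 Young libraries and above it in all 4 Old and all 4 Old_CP2 libraries. The order within a library rests on the deposited Pycard length of 1405 bases, which is 3800 in GENCODE vM21. For Casp1 both give 1497. A longer Pycard length would lower its RPKM in every library, so which gene is higher in Young is not settled. This order was noticed after the values were seen and was not tested as such.

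The other inflammasome genes did not pass in old brain. Pycard (mm10 7:127992103-127993867, 3 exon blocks) was at 1.97, 1.81, 1.76 and 2.33 CPM in Young and at 2.93, 2.26, 2.44 and 2.61 CPM in Old. The 4 Old values lay above the Young mean, yet the groups overlapped (2.56 ± 0.283 against 1.97 ± 0.257 CPM, log2 difference 0.38 ± 0.143, edgeR adjusted p = 0.136). Nlrp3, the sensor (mm10 11:59541568-59566956, 11 exon blocks), was at 0.841, 1.56, 1.44 and 1.46 CPM in Young. In Old it was at 1.82, 0.882, 2.29 and 1.17 CPM, the widest relative spread of any of the 10 genes in that group apart from Tnf. The log2 difference was 0.22 ± 0.266 (edgeR adjusted p = 0.71), and its direction rested on single libraries, as described further on.

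Of the cytokine genes, Il18 was similar in both groups and the others were scarce. Il18 (mm10 9:50575273-50581837), whose product needs caspase-1 to mature, ran from 8.78 to 11.1 CPM in Young and from 8.91 to 11.1 CPM in Old. Its log2 difference of 0.04 ± 0.101 (edgeR adjusted p = 0.859) had a 2 SE interval of 0.896 to 1.19 in fold. Il1b (mm10 2:129364570-129371139, 6 exon blocks), the main inflammasome cytokine, had 7, 14, 39 and 11 reads in the Young libraries and 11, 20, 29 and 31 in the Old ones. Those reads came to 0.0906, 0.155, 0.498 and 0.123 CPM in Young and to 0.122, 0.294, 0.36 and 0.329 CPM in Old. Young replicate 4 was thus the highest of all 12 libraries, and the difference of 0.35 ± 0.488 in log2 (edgeR adjusted p = 0.747) left a fold between 0.65 and 2.52 possible at 2 SE. Without Young replicate 4 the Il1b difference was 1.16, still not called (edgeR adjusted p = 0.135).

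Il1a, an interleukin-1 that acts without caspase-1 cutting, and Tnf completed the group. Il1a (mm10 2:129299610-129309972, 7 exon blocks) was at 0.285, 0.664, 0.434 and 0.692 CPM in Young. In Old it was at 0.774, 0.529, 0.806 and 0.595 CPM, a log2 difference of 0.38 ± 0.283 (edgeR adjusted p = 0.494) with overlapping groups. Both interleukin-1 genes overlap an antisense gene, and the kit does not mark strand, so reads of each pair cannot be told apart in the shared bases. Il1b shares 25 exonic bases with Il1bos, which had 3 to 15 reads per library, and Il1a shares 222 with Gm14023, which had 15 to 43. Tnf (mm10 17:35199381-35202007, 4 exon blocks) had 4, 2, 8 and 1 reads in Young and 12, 3, 4 and 2 in Old. The depth-adjusted ratio of the summed Tnf reads, 21 against 15, was 1.41 with an exact 95% interval of 0.693 to 2.94 that covers counting error only. At 70548781 to 99449665 counts per library, a change in Tnf was not detectable.

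The NF-kB genes differed little in size between the ages. Rela (mm10 19:5637483-5648130, 13 exon blocks) was at 18.4, 18.1, 18.4 and 18.4 CPM in Young and at 19.0, 19.6, 20.5 and 19.7 CPM in Old. The values did not overlap, and the 1.07-fold difference had an unadjusted p of 0.0404 that did not pass the adjustment (log2 difference 0.1 ± 0.0457, edgeR adjusted p = 0.207). Of all tested genes 6.94% did not overlap in this direction, and 4835 of 22553 had an unadjusted p under 0.05 in edgeR. Nfkb1 (mm10 3:135584655-135691547, 26 exon blocks) was at 16.2, 18.0, 16.4 and 16.0 CPM in Young. In Old it was at 17.7, 17.8, 18.1 and 17.8 CPM, a log2 difference of 0.1 ± 0.0498 (edgeR adjusted p = 0.272). Nfkbia (mm10 12:55489411-55492647, 6 exon blocks), the inhibitor gene, was at 17.3, 13.5, 13.8 and 14.9 CPM in Young and at 11, 16.2, 15.7 and 12.7 CPM in Old. Its log2 difference of -0.1 ± 0.122 (edgeR adjusted p = 0.725) was smaller than the spread between the Old libraries, and it was 0.01 without Old replicate 7.

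**Figure D2:**
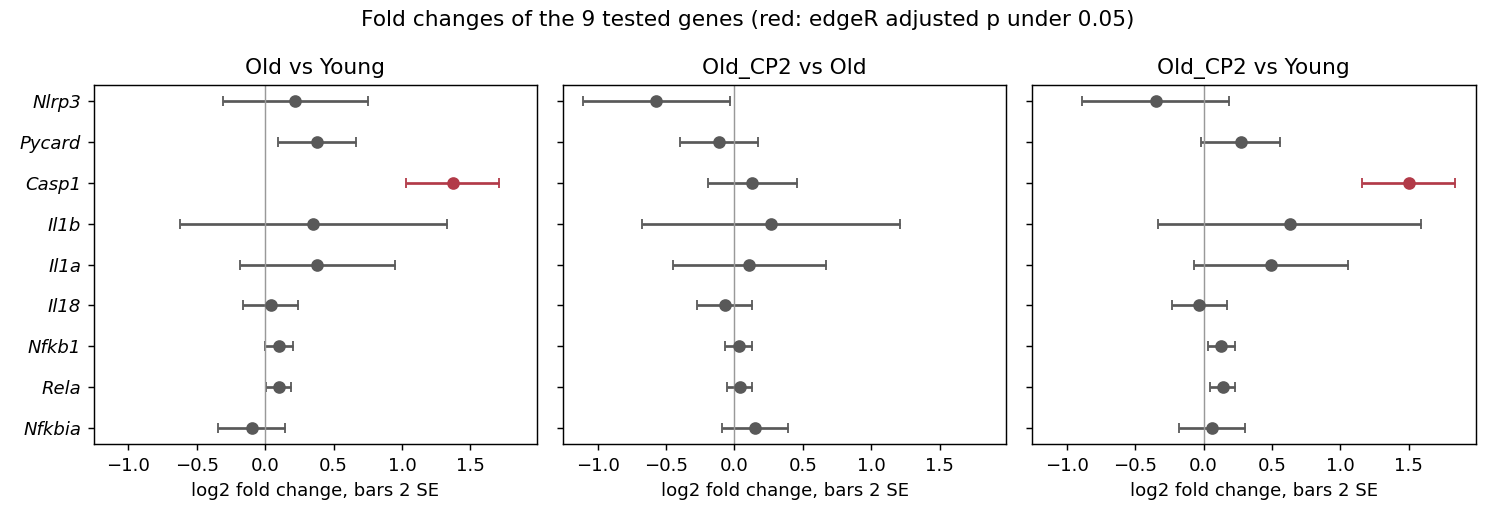
Log2 fold changes (horizontal axis) of the 9 tested genes in the 3 comparisons, with bars of 2 standard errors and called genes in red. Casp1 is called in both comparisons with Young, at 1.37 and 1.5, and no gene is called between Old_CP2 and Old.

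Treatment with CP2 at the same age moved none of the 9 tested members past the threshold. No member had an unadjusted p under 0.05 in edgeR, where 6.31% of tested genes did, and DESeq2 and limma voom called none either. Only 0.0443% of tested genes were called in this comparison, 10 in all, so an absence of calls is close to the background. Casp1 was at 4.45, 3.75, 3.09 and 5.08 CPM in Old_CP2 replicates 11, 12, 13 and 15, a mean of 4.09 ± 0.863 CPM that lay across the Old range. The fold between Old_CP2 and Old was 1.1 (0.874 to 1.38 at 2 SE, edgeR adjusted p = 0.914). The interval spans 1, so a small difference in either direction is not excluded, and it is not a limit of detection.

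Nlrp3 had the smallest p of the members in this comparison. It was at 1.1, 1.04, 0.933 and 1.1 CPM in Old_CP2, a mean of 1.04 ± 0.0805 CPM against 1.54 ± 0.638 in Old. The 4 treated libraries were close together and below the Old mean, but they lay inside the range of the 4 Old libraries. The log2 difference was -0.57 ± 0.268 (unadjusted p = 0.0544, edgeR adjusted p = 0.796).

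No remaining tested member passed between treated and untreated old brain. Pycard was at 2.39, 1.9, 2.32 and 2.88 CPM in Old_CP2 (log2 difference -0.11 ± 0.142 from Old, edgeR adjusted p = 0.914). Il18 ran from 8.42 to 11.1 CPM, with a 2 SE interval of -0.27 to 0.13 for its log2 difference from Old. Il1b was at 0.333, 0.265, 0.412 and 0.322 CPM and Il1a at 1.01, 0.662, 0.564 and 0.694 CPM. All 4 Il1b values lay inside or just above the Old range, and neither interleukin-1 gene passed (edgeR adjusted p = 0.939 and 0.96). At 2 SE the fold against Old ran from 0.628 to 2.32 for Il1b and from 0.736 to 1.59 for Il1a. Those bounds describe the estimates and are not a limit of detection. Tnf had 2, 14, 7 and 8 reads, a depth-adjusted ratio to Old of 1.34 (exact 95% interval 0.745 to 2.45).

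Among the NF-kB genes, Rela was at 20.6, 20.8, 19.3 and 20.3 CPM in Old_CP2 and Nfkb1 at 18.3, 17.8, 18.5 and 18.4 CPM. The folds against Old were 1.03 for Rela (0.966 to 1.1 at 2 SE) and 1.02 for Nfkb1 (0.955 to 1.1). Nfkbia was at 14.4, 17.2, 14.1 and 16.1 CPM, all 4 above the Old mean of 13.9 ± 2.45 CPM but inside or near its range (log2 difference 0.15 ± 0.122, edgeR adjusted p = 0.872). The fold intervals of the 3 genes, up to 1.32 for Nfkbia, describe the estimates and are likewise not a limit of detection.

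Treated old brain was also set beside Young, a comparison that shares its libraries with the other two, and Casp1 was again the single called member. The fold was 2.84 (2.24 to 3.59 at 2 SE; log2 difference 1.5 ± 0.17, edgeR adjusted p = 0.000503), the 28th smallest p of all tested genes. All 4 Old_CP2 libraries lay above all 4 Young ones, as 8.42% of tested genes did in that direction. With 7.57% of tested genes called, 1 of 9 members is a result on Casp1 alone. Rela did not overlap between these groups either, with 20.3 ± 0.654 against 18.3 ± 0.162 CPM. Its log2 difference of 0.14 ± 0.0456 missed the threshold in edgeR (adjusted p = 0.0734) and passed in DESeq2 (adjusted p = 0.0323). Nfkb1 differed by 0.13 ± 0.0497 (edgeR adjusted p = 0.129), Pycard by 0.27 ± 0.143 (0.289) and Nlrp3 by -0.35 ± 0.269 (0.482). Il1b differed by 0.63 ± 0.48 (edgeR adjusted p = 0.476), Il1a by 0.49 ± 0.281 (0.323), Nfkbia by 0.06 ± 0.121 (0.824) and Il18 by -0.03 ± 0.101 (0.912). Tnf had a read ratio of 1.89 (exact 95% interval 0.989 to 3.76).

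Markers of microglia, border macrophages, and neutrophils and monocytes had higher mean sums in Old than in Young. Other cell type markers went both ways in that comparison. Of 8 meningeal fibroblast markers 3 were called higher in Old, of 8 ependyma markers 2 lower, and of 10 endothelium markers 0. The shares of all tested genes were 3.96% called higher and 2.74% lower. In bulk tissue, fewer cells of a type and less RNA per cell cannot be told apart. The summed level of 20 microglia markers, all with reads in every library, spanned 460 to 585 CPM in Young libraries, 665 to 673 CPM in Old ones and 632 to 757 CPM in Old_CP2 ones. Of these 20 markers 6 were called higher in Old, among them Ctss, C1qa and Tyrobp, and none lower. Among all tested genes 3.96% were called higher. P2ry12, P2ry13, Gpr34, Olfml3, Fcrls and Siglech, of the same list, differed by -0.05 to 0.15 in log2 and were not called. None of the 20 differed between Old_CP2 and Old at the threshold. In that comparison 5 of 20 had an unadjusted p under 0.05 in edgeR, against 6.31% of all tested genes. Neutrophil and monocyte markers summed to between 6.77 and 7.47 CPM in Young, between 10.7 and 17.9 CPM in Old and between 9.4 and 13.9 CPM in Old_CP2, with 4 of 10 tested called higher in Old (Csf3r, Ngp, S100a9 and S100a8). Ly6g, a defining neutrophil marker, was at 0 in all Old_CP2 libraries. Border macrophage markers summed to 19.1 to 29.3, 27.9 to 34.6 and 28.2 to 33.7 CPM in the same order of groups, with 1 of 9 called in Old.

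Casp1 was then read relative to the microglia markers. The log2 ratio of Casp1 to the mean microglia marker was -3.82 ± 0.17 in Young and -2.76 ± 0.14 in Old, a difference of 1.06 with no overlap of the 4 and 4 values. The exact permutation test over all 70 splits, two-sided, gave p = 0.0286, the smallest it can give, and 0.229 after adjustment over 24 such tests of 8 members in 3 comparisons. In Old_CP2 the ratio was -2.6 ± 0.32 (difference from Young 1.22, same exact permutation p). For Nlrp3 the ratio was lower in Old_CP2 than in Young by 0.57 on the log2 scale (-4.53 ± 0.12 against -3.96 ± 0.29, exact permutation p = 0.0286, adjusted 0.229). None of the 24 tests passed the adjustment, which at this group size would have needed 14 of them at the smallest p.

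With the microglia marker level as a term in the edgeR fit, the Casp1 difference between Old and Young was 0.97 ± 0.295 and was no longer called (adjusted p = 0.223). That fit called 0 of 22553 genes, 2743 of them with an unadjusted p under 0.05. Every Old library had a higher marker level than every Young one, so group and marker level are nearly confounded in it. Between Old_CP2 and Young the Casp1 difference in that fit was 1.17 (adjusted p = 0.109).

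**Figure D3:**
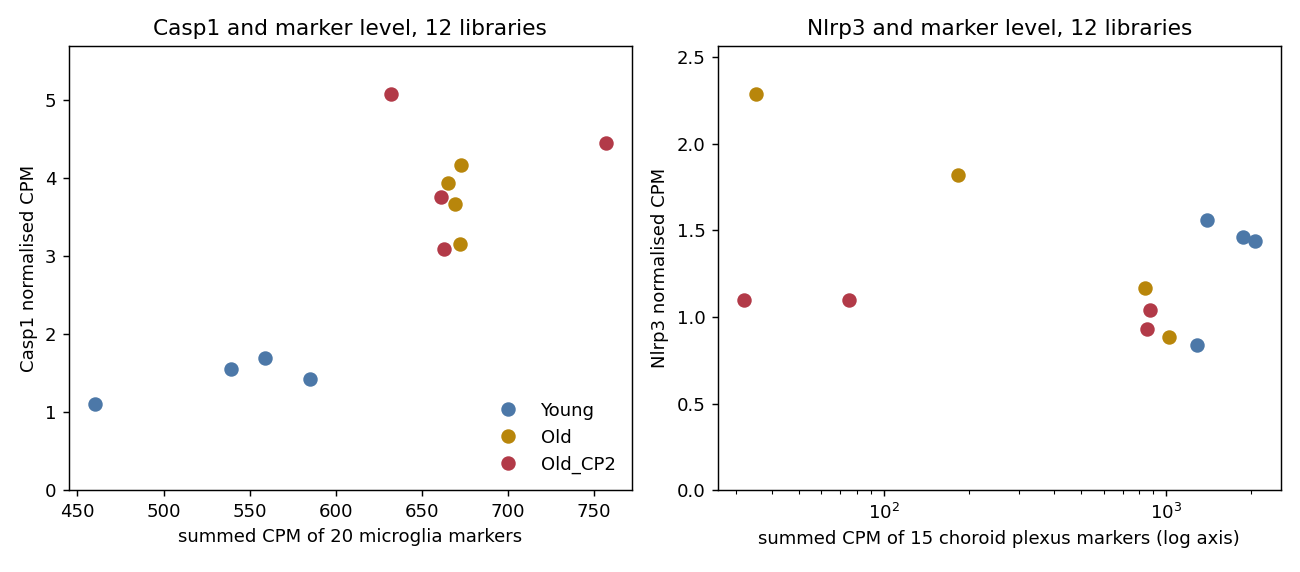
Left, Casp1 (normalised CPM) against the summed CPM of 20 microglia markers in 12 libraries. Right, Nlrp3 against the summed CPM of 15 choroid plexus markers on a log axis; the 4 libraries under 200 CPM are Old 7 and 9 and Old_CP2 11 and 15, and the 2 Old ones hold the highest Nlrp3 values, 1.82 and 2.29.

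Choroid plexus markers differed widely between libraries, and the uncalled Nlrp3 difference between Old and Young changed sign, from 0.22 to -0.36, without the 4 libraries lowest in them. The 15 choroid plexus markers summed to 1280 to 2060 CPM in Young. They summed to 1020 and 839 CPM in Old replicates 8 and 10 but to 183 and 35.3 in replicates 7 and 9. In Old_CP2 they summed to 873 and 857 CPM in replicates 12 and 13 and to 31.8 and 75.0 in replicates 11 and 15. Nlrp3 was at 1.82 and 2.29 CPM in the 2 Old libraries with little choroid plexus signal and at 0.882 and 1.17 CPM in the other two, whereas it was between 0.933 and 1.1 CPM in all Old_CP2 libraries. Without the 4 libraries lowest in these markers, the Old against Young difference in Nlrp3 was -0.36 instead of 0.22, and that between Old_CP2 and Old was -0.06 instead of -0.57. Without Old replicate 9 alone the first of these was -0.03. The part of the choroid plexus in Nlrp3 was not tested. For Casp1 the Old against Young difference was 1.3 (edgeR adjusted p = 0.00934) without these 4 libraries and 1.21 (0.0118) with the marker level as a term. Every old library was lower in these markers than every Young one, so group and marker level are partly confounded in the fit with that term. The fit without the 4 libraries kept 2 Old and 2 Old_CP2 libraries.

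Casp1 sits beside other inflammatory caspase genes, and its neighbours were looked at after its change was seen. Within 500 kb the table held 4 genes with Casp1 itself counted, and the 3 tested were Casp1, Casp4 and Casp12. Casp4, the caspase of the non-canonical inflammasome, had means of 0.178 ± 0.0357 CPM (Young) and 0.368 ± 0.0513 CPM (Old) and did not pass (log2 difference 1.04 ± 0.34, edgeR adjusted p = 0.0879; 0.0497 in the fit of these 2 groups alone). In Old_CP2 Casp4 was at 0.495 ± 0.219 CPM and was called against Young (1.46 ± 0.335, edgeR adjusted p = 0.0204). That Casp4 call ended without Young 4 (adjusted p = 0.0583), without Old_CP2 11 (0.0693) and without the 4 libraries low in choroid plexus markers (0.86, adjusted p = 0.234). Casp12 was at 0.779, 1.53 and 1.52 CPM in Young, Old and Old_CP2 (log2 difference 0.97 between Old and Young, edgeR adjusted p = 0.191).

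The wider pathway was read from 7 lists of other inflammasome, interleukin-1, TNF and NF-kB genes, 155 of them tested. The lists were chosen with earlier results of these data known, so a share above that of all genes is a description only. In Old against Young 10 were called higher and 2 lower (7.74%), against 3.96% higher and 2.74% lower among all tested genes. Their median log2 difference was 0.12, where the median of all tested genes was -0.0034. With the choroid plexus markers as a term 3 of the 12 calls remained, and without the 4 libraries lowest in them 6 remained. Over all tested genes these fits called 302 and 514, where the main fit called 1511. In the first of them group and marker level are partly confounded. In that smaller fit of 8 libraries Naip2, Nod2 and Tnfrsf11b lost their calls at differences of 0.81, -0.85 and 1.02, where all libraries gave 0.8, -0.83 and 0.88, while Card10 differed by 0.4 instead of 0.58. With the microglia markers as a term 0 of the 12 remained, in a comparison where edgeR then called 0 of the 22553 genes and 2743 had an unadjusted p under 0.05. DESeq2 called 17 higher and 2 lower, all 12 among them. In Old_CP2 against Old none of the 155 was called, by edgeR, DESeq2 or limma voom, against 0.0443% of all genes, and the median was 0.03. Of these 155, 13 had an unadjusted p under 0.05 in edgeR, against 6.31% of all tested genes.

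Among 16 tested inflammasome sensors, 1 was called higher and 1 lower in old brain, against 3.96% and 2.74% of all tested genes. Naip2, a sensor of bacterial proteins, averaged 1.85 ± 0.164 CPM (Old) and 1.07 ± 0.165 CPM (Young) (log2 difference 0.8 ± 0.157, edgeR adjusted p = 0.0111). Naip genes are near-identical copies, so the split of reads between them is uncertain. Nod2, a sensor of bacterial cell wall that signals to NF-kB, was lower at 0.938 ± 0.13 against 1.67 ± 0.227 CPM (-0.83 ± 0.154, edgeR adjusted p = 0.00855). Without the 4 libraries low in choroid plexus markers the adjusted p was 0.0534 for Naip2 and 0.0713 for Nod2, with differences of 0.81 and -0.85. Among 21 tested effectors, which include the gasdermins and other caspases, none was called by edgeR. Of the 21, 5 had an unadjusted p under 0.05, as did 4835 of all 22553 tested genes. P2rx7, the ATP-gated channel upstream of NLRP3, was at 11.7 ± 0.536 against 10.3 ± 0.759 CPM (edgeR adjusted p = 0.116).

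The interleukin-1 family had 1 call among 13 tested genes, against 6.7% of all tested genes called. Il33, an alarmin of astrocytes and oligodendrocytes in the brain, was at 41.4, 47.8, 46.6 and 49.8 CPM in Young. It was at 82.9, 78.1, 75.4 and 77.5 CPM in Old and at 64.6, 73.3, 74.4 and 97.0 CPM in Old_CP2. All 8 old libraries were above all Young ones, with a log2 difference of 0.76 ± 0.1 between Old and Young (edgeR adjusted p = 0.0015). The call was kept without any 1 library and in both choroid plexus settings. Astrocyte markers were also higher in Old, with 6 of 12 called, against 3.96% of all tested genes. Their sum ran from 4440 to 5070 CPM in Young and from 5850 to 6240 in Old. In Old_CP2 that sum was 5020 to 5570 CPM, and 1 of 12 was called higher against Young, against 4.63% of all tested genes. Oligodendrocyte markers went the other way, with 2 of 9 called lower in Old and 0 higher, against 2.74% of all tested genes called lower. The part of either cell type in the Il33 result was not tested.

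In the TNF family 1 gene was called higher and 1 lower among 17 tested, against 3.96% and 2.74% of all tested genes. Tnfrsf11b, the decoy receptor osteoprotegerin, averaged 2.63 ± 0.708 CPM (Old) and 1.43 ± 0.271 CPM (Young) (log2 difference 0.88 ± 0.19, edgeR adjusted p = 0.017). Without the 4 libraries low in choroid plexus markers its difference was 1.02, with an adjusted p of 0.054. Tnfrsf11a, the receptor RANK, was at 5.12 ± 0.431 against 6.68 ± 0.559 CPM (-0.38 ± 0.093, edgeR adjusted p = 0.0285). The Tnfrsf11a call ended without Young 4 or 5 or Old 7 or 8 (edgeR adjusted p of 0.0534 to 0.0816). None of the 12 other NF-kB subunit and inhibitor genes was called. In edgeR 1 of the 12 had an unadjusted p under 0.05, as did 4835 of all 22553 tested genes. Nkrf, an NF-kB repressing factor, and Nfkbie, an IkB gene, had the smallest p, with differences of 0.1 ± 0.0415 and 0.29 ± 0.154 (edgeR adjusted p = 0.175 and 0.296). Of 47 signalling genes, Card10, a scaffold upstream of the IkB kinase, was called at 12 ± 1.92 against 8.02 ± 0.465 CPM (edgeR adjusted p = 0.0212). The Card10 call ended without Young 4, Young 5 or Old 7 (edgeR adjusted p of 0.051 to 0.0614).

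NF-kB target genes held 6 of the 12 calls, all higher, among 30 tested, where 3.96% of all tested genes were called higher. This list too was chosen with earlier results of these data known, so its call count is a description only. The count was 2 with the choroid plexus markers as a term and 0 with the microglia markers as a term. Microglia markers were also higher in Old, with 6 of 20 called, and their part in the target genes was not tested. Csf1, the growth factor of microglia, was at 19.8, 20.4, 20.8 and 20.1 CPM in Young and at 25.4, 25.4, 24.1 and 24.8 CPM in Old. Its log2 difference was 0.3 ± 0.0449 (edgeR adjusted p = 0.00319), and it was called in both choroid plexus settings. Cd83, an activation marker, was at 33.5 ± 2.07 against 24.6 ± 0.854 CPM (0.45 ± 0.0722, edgeR adjusted p = 0.00445). Ccl4, a chemokine, had 4, 2, 6 and 2 reads in Young and 28, 17, 22 and 14 in Old (0.0432 ± 0.0263 and 0.245 ± 0.0689 CPM, edgeR adjusted p = 0.00855). Its log2 difference was 2.5 ± 0.463, and 2.18 with an adjusted p of 0.0843 without the 4 libraries low in choroid plexus markers. Tapbp, part of antigen presentation, was at 31.0 ± 1.85 against 25.2 ± 1.3 CPM (edgeR adjusted p = 0.0124). Sod2 and Lcn2 were called as well, and the Lcn2 call rested on few reads and ended without Young 1, 3, 4 or 5 or Old 10 (edgeR adjusted p of 0.0504 to 0.0651). Of the 30 targets 24 had a positive difference, as did 11070 of all 22553 tested genes. Those not called included Nos2 (-0.63), Cxcl10 (-0.29), Ptgs2 (-0.09) and Vcam1 (0.02). Nfkb1, Rela and Nfkbia, the last itself an NF-kB target, did not pass either. Whether these 3 genes differ from the targets was not tested.

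**Figure D4:**
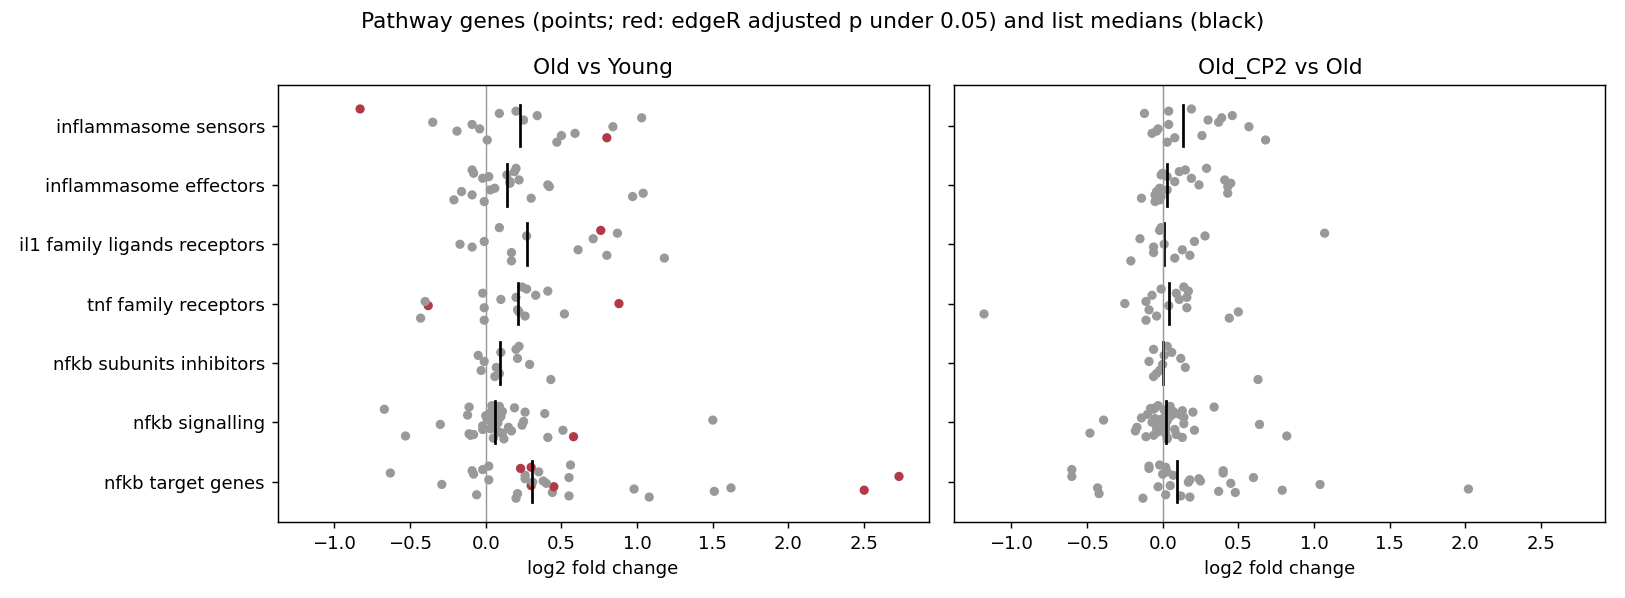
Log2 fold changes (horizontal axis) of the pathway genes by list, with called genes in red and list medians as black bars, for Old against Young (left) and Old_CP2 against Old (right). Called genes appear on the left, 10 higher and 2 lower of 155, and none appear on the right.

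Between treated and untreated old brain the pathway genes of smallest p stayed short of the threshold. Gsdme, a pore-forming gasdermin, had the smallest adjusted p, at 20.6 ± 0.558 CPM in Old_CP2 and 18.1 ± 0.549 in Old (log2 difference 0.19 ± 0.0538, edgeR adjusted p = 0.444). Gsdmd, the pore that caspase-1 opens, was at 2.92 ± 0.664 against 2.21 ± 0.383 CPM (edgeR adjusted p = 0.764). Nlrp6 and Naip1 led the sensors (edgeR adjusted p = 0.73 and 0.83), Il1rapl2 and Il1rn the interleukin-1 family (0.826 and 0.86), and Adam17, which sheds TNF, and Lta the TNF family (0.796 and 0.826). Bcl3, a nuclear IkB protein, differed by 0.63 ± 0.289 (edgeR adjusted p = 0.784) and Nkrf by 0.06 ± 0.0414 (0.853). Irak2 and Tab2 led the signalling genes (0.706 and 0.73), and Ccl5 and Ccl4 the targets (0.718 and 0.789). Ccl5 was at 2.7 CPM in Old_CP2 replicate 15 and at 0.153 to 0.5 CPM in the other 3, and lymphocyte markers were also highest in that library, at a sum of 3.78 CPM against 1.57 to 2.67, whose part in the Ccl5 value was not tested.

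In Old_CP2 against Young 21 pathway genes were called higher and 2 lower of 155 (14.8%), against 4.63% and 2.94% of all tested genes, with a median log2 difference of 0.17. These counts share the Young libraries with the first comparison. They come from lists chosen with earlier results of these data known and are a description only. Of the 23 calls 8 were kept when any 1 of the 8 libraries was left out: Naip2, P2rx7, Il33, Tnfaip3, Csf1, Cd83, Ccl4 and Tapbp. The other 15 ended in at least 1 such fit (edgeR adjusted p of 0.0502 to 0.126). The number that remained was 9 without Old_CP2 replicate 11, 11 without Young 1 or Young 4, 12 without Old_CP2 15, 13 without Young 3, 14 without Young 5 and 17 without Old_CP2 12 or 13. With the choroid plexus markers as a term 5 of the 23 remained, without the 4 libraries lowest in them 6, and with the microglia markers as a term 0. DESeq2 called 35 higher and 3 lower, all 23 among them.

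By list, against 7.57% of all tested genes called, sensors had 4 calls of 16 tested (Naip2, Nlrp6 and Naip5 higher, Nod2 lower). Effectors had 3 of 21 (P2rx7, Casp4 and Gbp2). The interleukin-1 family had 2 of 13 (Il33 and Il1r2, the decoy receptor) and the TNF family 1 of 17, Tnfrsf11a, which was lower. Nkrf and Bcl3 were called among 12 subunits and inhibitors, and Tnfaip3, Birc3, Irak3 and Card10 among 47 signalling genes (8.51%). Targets had 7 calls of 30 tested, namely Csf1, Ccl4, Cd83, Tapbp, Ccl3, Bcl2a1b and Ccl5. Tnfaip3, the NF-kB feedback inhibitor A20, was at 5.06, 4.7, 4.97 and 5.22 CPM in Young and at 7.45, 7.5, 6.13 and 6.36 CPM in Old_CP2. The log2 difference in Tnfaip3 was 0.46 ± 0.0873 (edgeR adjusted p = 0.00795). Without the 4 libraries low in choroid plexus markers the Tnfaip3 difference was again 0.46, with an adjusted p of 0.0536. P2rx7 was at 12.6 ± 0.301 against 10.3 ± 0.759 CPM (0.29 ± 0.0661, edgeR adjusted p = 0.0191), and differed by 0.33 with an adjusted p of 0.0746 in that setting. Ccl4 was at 0.423 ± 0.163 CPM (edgeR adjusted p = 0.00135) and Il33 at 77.3 ± 13.8 CPM (edgeR adjusted p = 0.00131). Bcl2a1b and Naip5 belong to families of near-identical copies, so their values are uncertain.

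The genes most alike in profile were taken as those with the smallest mean absolute difference of standardised log2 CPM over the 12 libraries, among 13896 genes. For Casp1 they were Rspo2 (0.168 SD), Efr3a (0.178) and Csf1 (0.191), the last being also on the target list. Rspo2 was at 10.4, 21.4 and 22.8 CPM in Young, Old and Old_CP2, a step between the ages like that of Casp1. For Pycard they were Lpxn (0.247), Kctd9 (0.259) and Fignl2 (0.265), and for Rela Mnt (0.248), Tnfaip3 (0.271) and Sept9 (0.278). Nfkb1 was nearest to Usp24 (0.232), Tacr3 (0.266) and Ccdc93 (0.27), and Nfkbia to Adra1d (0.324), Eif1ad (0.341) and Hs6st3 (0.356). Il18 and Nlrp3 had the most distant neighbours, C3 (0.4), Tmem87a (0.404) and Gtpbp10 (0.41) for Il18 and Colgalt2 (0.426), Capn3 (0.512) and Lipe (0.539) for Nlrp3. These are descriptions over the same libraries that gave the group differences.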

How the data were processed

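RNA was measured in 12 mouse brain libraries of 3 groups. Per the submitters' processing notes, the authors used bcl2fastq, TopHat, Subread and featureCounts on mm10; versions and the annotation release are not given in the sources used here. Per the file headers, the deposited table gives a count and an RPKM value per gene and library. The counts the authors deposited are whole numbers with no scaling, and the deposited RPKM values rest on a library total larger than the counts, which came to 79.9 to 85.4% of it. RPKM was used only for levels between genes.

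The test was edgeR 4.0.16 (R 4.3.3) on the counts, with genes kept by filterByExpr, TMM factors, a quasi-likelihood F test with all 12 libraries and the group as the only term, two-sided, with Benjamini-Hochberg adjustment over 22553 genes, and a call at an adjusted p under 0.05. CPM values are counts scaled to the TMM library size, and fold changes are log2 with the standard error from the F statistic. The fit was tested on simulated data. Alternatives were RLE and upper quartile factors, no filter, a filter of 1 CPM in 4 libraries, DESeq2 1.42.0, limma 3.58.1 (voom), only the groups compared, each library left out, microglia or choroid plexus markers as a term, and the 4 libraries lowest in choroid plexus markers left out; for pathway genes these were added after seeing the data. The members and lists were chosen with earlier results of these data known. All members were named; from each pathway list, up to 4 called genes of smallest p per comparison, or 2 where none was called, plus a few named after their values were seen.

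Depth was 70548781 to 99449665 counts per library, and 1 CPM equals 70.55 to 99.45 counts. Identifiers in GENCODE vM21 numbered 42462. Promoters came from RefSeq (GRCm38.p6). Intervals of read ratios cover counting error only.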

Additional observations from a re-analysis of the deposited data

Results flagged for a closer look

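In 2 of the 30 group values of 4 libraries that were examined, a single library stood far from the other 3 by Dixon's gap criterion, which chance alone exceeds in about 1 of 20 groups. Young replicate 1 was low in Nlrp3, at 0.841 CPM against 1.44, 1.46 and 1.56 in the other Young libraries. Young replicate 4 was high in Il1b, at 0.498 CPM against 0.0906, 0.123 and 0.155. Neither gene was called in any of the 3 comparisons with or without that library.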

How the results depend on the processing

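Over the alternatives, Casp1 kept its direction and its call against Young in 17 of 18, from 0.97 to 1.46 in Old and 1.17 to 1.62 in Old_CP2; the exception was the microglia term, with 0 members called in both comparisons. DESeq2 called 2 members in Old_CP2 against Young, Casp1 and Rela. Between Old_CP2 and Old no alternative called a member. Over all genes, 1511 were called in Old against Young, with 855 to 1258 when 1 library was left out, 2474 by DESeq2, 302 with the choroid plexus term, 514 without the 4 libraries lowest in choroid plexus and 0 with the microglia term. For Old_CP2 against Young the 1707 calls became 827 to 1590, 2652, 329, 709 and 10 in the same order. For Old_CP2 against Old the 10 calls became 6 to 38 when 1 library was left out, 17 with no filter, 108 by DESeq2 and 21 without the 4 libraries.

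Signs reversed in differences that were not called. In Old against Young these were Nlrp3 (-0.03 to 0.41 when 1 library was left out, the former without Old 9, -0.23 with the choroid plexus term, -0.36 without the 4 libraries, -0.26 with the microglia term), Il1b (-0.6) and Il1a (-0.39) with the microglia term, and Nfkbia (-0.17 to 0.01 when 1 library was left out, the latter without Old 7, 0.18 with the microglia term). In Old_CP2 against Old they were Casp1 (-0.04) and Naip1 (-0.11) without the 4 libraries and Il1a (-0.09 to 0.22 when 1 library was left out). In Old_CP2 against Young they were Il1b (-0.2) and Il1a (-0.17) with the microglia term and Il18 (0.06 with the choroid plexus term, -0.09 to 0.04 when 1 library was left out). Log2 ratios to microglia markers changed sign for Pycard in Old against Young (-0.02 to 0.14 when 1 library was left out, -0.0025 with the marker subset), in Old_CP2 against Old (-0.18 to 0.02) and in Old_CP2 against Young (-0.11 to 0.09). They did so, when 1 library was left out, for Il1a (-0.06 to 0.27) and Nlrp3 (-0.38 to 0.09) in Old against Young and Il18 (-0.11 to 0.06) in Old_CP2 against Old. The cause of these changes was not tested. No paired analysis was possible because the groups share no replicate numbers. Depth limits Tnf, with 1 to 14 reads per library, and Il1b, with 7 to 39.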

Other observations

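Erythrocyte markers differed between treated and untreated old brain where no member did. Their summed level lay between 59.3 and 91.0 CPM in Young, between 81.7 and 148 CPM in Old and between 228 and 444 CPM in Old_CP2, and 2 of 7 were called between Old_CP2 and Old, Hba-a2 and Hba-a1, which are near-identical copies. Of all tested genes 0.0443% were called in that comparison, and 6.31% had an unadjusted p under 0.05. Astrocyte markers had 7 of 12 with an unadjusted p under 0.05 in edgeR there and none called. Their sum was 5020 to 5570 CPM in Old_CP2 against 5850 to 6240 in Old. Microglia markers went both ways in that comparison, 13 of 20 with a positive difference and none called. The 2 of smallest p were Olfml3, with means of 17.8 ± 2.19 CPM (Old_CP2) and 13.2 ± 2.09 CPM (Old) (edgeR adjusted p = 0.402), and P2ry12, with 31.6 ± 3.26 and 39.6 ± 1.99 CPM (edgeR adjusted p = 0.427).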
